A study of Mus musculus with 18 samples.

Results

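The genes described here are 8 secreted factors of the inflammatory response, namely the chemokines Cxcl1, Cxcl2, Cxcl3 and Cxcl5, the IL-6 family cytokines Il6 and Lif, the alarmin Il33 and the macrophage growth factor Csf1. They were taken by gene name from a table of 57180 genes, and 7 of the 8 had enough counts to be tested among 14263 genes. They were chosen by their names as cytokines of the NF-κB type and selected on measured values, because Cxcl3 and Il6 were much higher with AOA, so the comparisons of AOA with its controls were used in the choice and are given below as a description without a test.

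RNA was sequenced from L929 cells, a wild-type mouse fibroblast line, in 6 groups of 3 cultures. The groups were Mock (DMSO), AOA, AOA+Asp, HT-DNA, HT-DNA+AOA and HT-DNA+AOA+Asp. AOA is aminooxyacetic acid, an inhibitor of aminotransferases, added at 0.5 mM with a pretreatment of 1 h. Asp is aspartate at 20 mM. HT-DNA is herring testis DNA, brought into the cytosol with a cationic lipid reagent at 0.5 μg/ml for 6 h, where it activates the DNA sensor cGAS. All groups share 1 cell line, and none carries a genetic change. No group received aspartate alone, and none is labelled as receiving the transfection reagent alone, so the effects of DNA and reagent cannot be told apart.

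Cxcl1, Cxcl2, Cxcl3 and Cxcl5 encode chemokines of the ELR-positive CXC family, which act on the receptor CXCR2 and draw neutrophils out of the blood. IL-6 and LIF signal through receptor complexes that contain gp130 (Il6st) and activate JAK kinases and STAT3, IL-33 is held in the nucleus and acts on the receptor ST2 (Il1rl1) once it is released, and CSF1 maintains macrophages through CSF1R. Fibroblasts are a known source of all these factors, and NF-κB dimers acting at κB motifs, with AP-1 and C/EBP factors and control of mRNA decay, are well described regulators of several of their genes.

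Libraries held 17901605 to 24057343 counts, and the TMM scaling factors of edgeR were 0.918 to 1.07. Mitochondrial transcripts took 2.69% to 3.57% of counts, with 3.35% to 3.57% in AOA+Asp and 3.21% to 3.27% in HT-DNA+AOA+Asp. Their part in the results was not tested. The HT-DNA+AOA libraries differed most among themselves, with a chi-square per degree of freedom between pairs of libraries of 16.9 to 62.4, against 2.72 to 12.4 in the other groups. The 12 fibroblast markers summed to 5116 to 7218.6 CPM (counts scaled to the size of each library) and 9 of them exceeded 10 counts, among them Vim and S100a4, whereas Dcn and Lum had at most 1 count and Thy1 at most 4. The leukocyte gene Ptprc, the macrophage gene Adgre1 and the neutrophil gene S100a9 had 0 counts in all libraries. Of the 10 myeloid markers only Cd68 was abundant, at 110 to 155.2 CPM, and the other 9 summed to 0.758 to 1.91 CPM. Cd68 was highest in HT-DNA+AOA, at 138.2 to 155.2 CPM, where most members were highest too; its part in the results was not tested. Endothelial, epithelial and T cell markers summed to at most 2.36, 0.64 and 0.577 CPM. In bulk RNA, fewer expressing cells and less RNA per cell cannot be told apart.

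The 4 chemokine genes lie close together on chromosome 5 with their relatives Ppbp, Pf4 and Cxcl15, in the order Cxcl5, Ppbp, Pf4, Cxcl3, Cxcl15, Cxcl1 and Cxcl2 in the RefSeq annotation of GRCm38.p6. Il6 lies elsewhere on chromosome 5, Csf1 on chromosome 3, Lif on chromosome 11 and Il33 on chromosome 19. The promoters are shown because the members differ in whether the 250 bases before the RefSeq start hold a match to the 10-base κB motif, the site that NF-κB dimers bind. The following promoter stretches of GRCm38.p6 are written 5′ to 3′ on the strand of the gene, with κB matches in capitals. Cxcl1 is chr5:90891145-90891244, Cxcl2 is chr5:90903799-90903898, Cxcl3 is chr5:90786001-90786100 and Il6 is chr5:30013014-30013113, all on the + strand, and Csf1 is chr3:107760470-107760719 on the − strand.
Cxcl1: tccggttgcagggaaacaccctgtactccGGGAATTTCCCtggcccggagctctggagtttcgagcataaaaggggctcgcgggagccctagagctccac
Cxcl2: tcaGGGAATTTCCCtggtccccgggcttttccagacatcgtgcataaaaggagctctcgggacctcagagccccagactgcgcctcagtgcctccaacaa
Cxcl3: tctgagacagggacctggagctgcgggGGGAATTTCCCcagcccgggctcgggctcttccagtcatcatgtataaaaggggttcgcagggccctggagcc
Il6: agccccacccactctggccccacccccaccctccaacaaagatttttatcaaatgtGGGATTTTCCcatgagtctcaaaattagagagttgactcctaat
Csf1: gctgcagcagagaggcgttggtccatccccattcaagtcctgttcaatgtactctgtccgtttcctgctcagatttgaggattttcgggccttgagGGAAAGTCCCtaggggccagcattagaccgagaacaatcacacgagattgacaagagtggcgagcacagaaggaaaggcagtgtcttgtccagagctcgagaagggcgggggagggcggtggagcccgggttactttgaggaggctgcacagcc

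Cxcl1, Cxcl2 and Cxcl3 carried the same run of 11 bases, GGGAATTTCCC, which matches the motif on both strands in overlapping positions. The match lay at bases −71 to −61 in Cxcl1, −97 to −87 in Cxcl2 and −73 to −63 in Cxcl3, counted from the start. Il6 had 1 match on the + strand of the gene at −44 to −35, and Csf1 had 1 on the opposite strand at −154 to −145. No match was found in the windows of Lif or Il33, and the promoter table held 7 of the 8 genes, without Cxcl5. Of all 32851 promoter windows of this length, 3.9% held a match. The AP-1 motif TGANTCA was found in Il6 at −249 to −243 and in Lif at −228 to −222, and in 6.75% of all windows. The cAMP response element TGACGTCA and the C/EBP-ATF4 composite TGATGNAA were in none of the 7, against 1.55% and 3.45% of all windows. TATAAA, in 12.4% of all windows, occurred at −30 to −25 in Cxcl3 and −203 to −198 in Il33, and at −29 to −24 before a second RefSeq start of Il33. A match describes letters only, and no binding was measured.

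**Figure D1:**
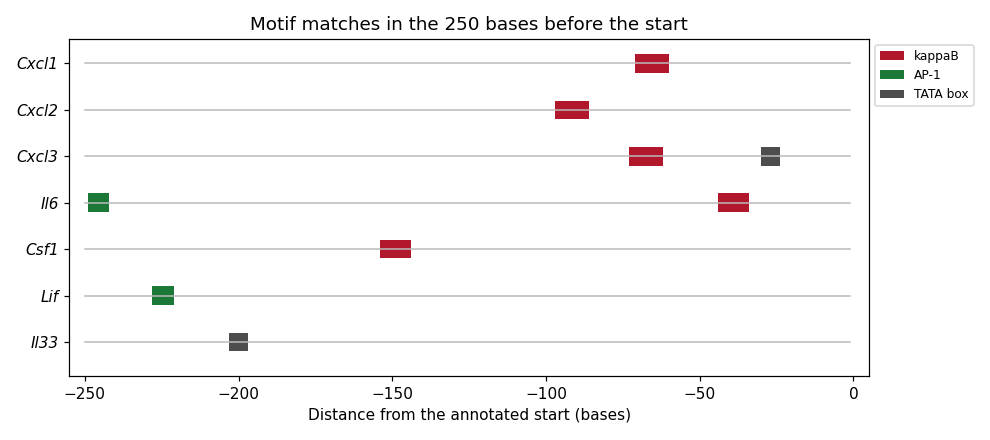
Position of motif matches in the 250 bases before the RefSeq start of the 7 genes in the promoter table, with the first entry for Il33; the x axis is the distance from the start in bases and each block is 1 match on either strand. κB matches lie within 100 bases of the start in Cxcl1, Cxcl2, Cxcl3 and Il6, farther away in Csf1, and in none of the windows of Lif and Il33.

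Their basal levels differed widely. Per kilobase of exon (GENCODE vM21 lengths), Mock cells had 269 CPM of Csf1 and 90.7 CPM of Cxcl1, against 4.62 of Cxcl2, 2.69 of Lif, 0.104 of Il33, 0.0741 of Il6 and 0.0515 of Cxcl3. Csf1 and Cxcl1 were thus abundant in untreated cells, whereas Il33, Il6 and Cxcl3 were near the limit of detection. Cxcl1, Cxcl2, Lif and Csf1 reached the level that the count filter required (0.491 CPM) in all 18 libraries. Cxcl3 reached it in 7, Il6 in 11 and Il33 in 12, and none of these libraries was from Mock or AOA+Asp, so these 3 genes entered the tests only through the groups where they were high. The 3 HT-DNA+AOA libraries, all above that level, were enough for each to pass. Counts and medians over the 7 tested members are therefore given as a description and not as support.

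**Figure D2:**
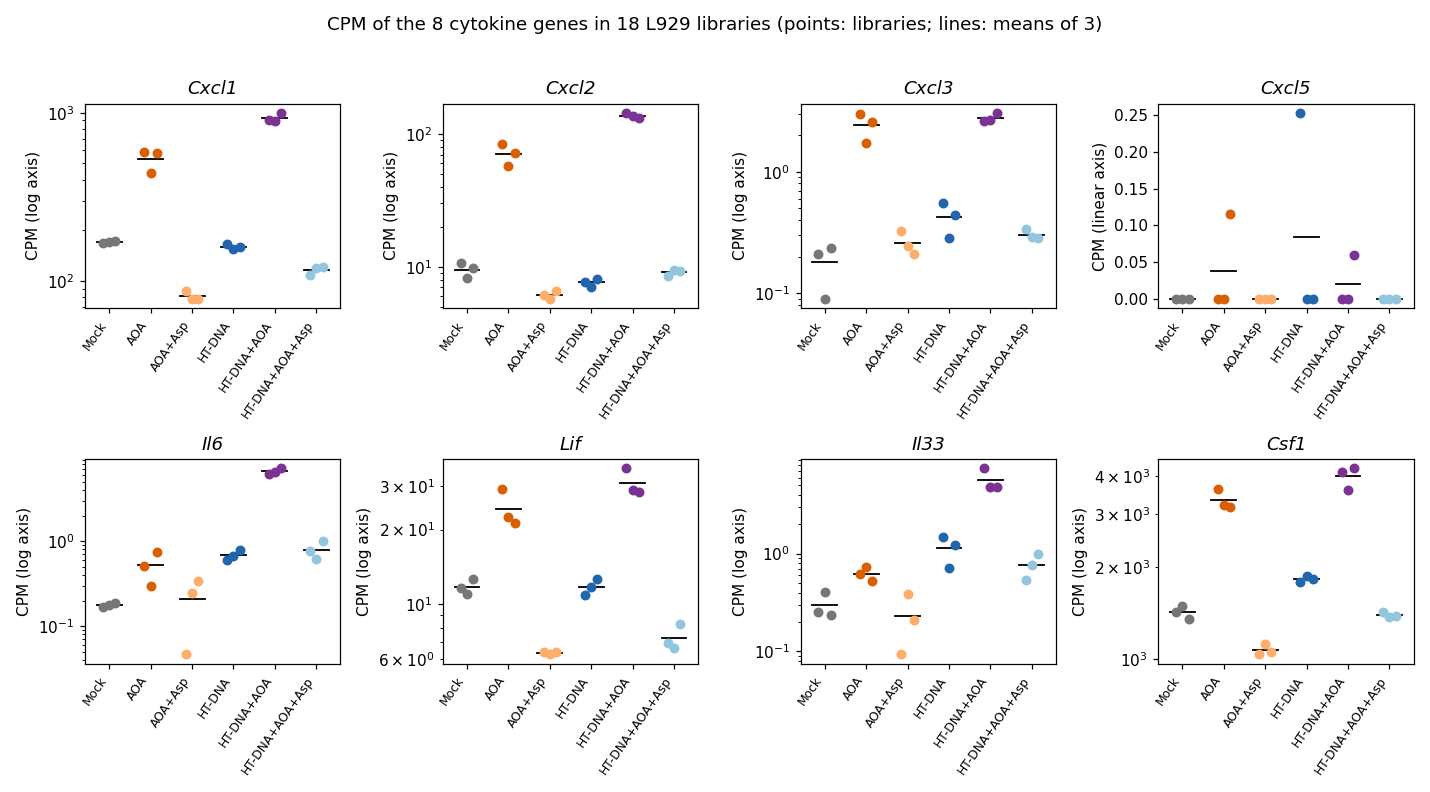
CPM of each gene in each of the 18 libraries by group, on a log axis except for Cxcl5; points are libraries and lines are the means of 3. In every gene but Cxcl5 the HT-DNA+AOA group has the highest mean, and the AOA+Asp libraries lie at or below the Mock libraries or overlap with them.

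Cxcl1, a chemokine of neutrophils and the most abundant of the 4, had 167.3, 169.5 and 173.4 CPM in the Mock libraries. It had 583.3, 440.3 and 577.0 CPM with AOA, and 86.9, 78.3 and 78.6 CPM with AOA+Asp. The HT-DNA libraries had 165.6, 154.0 and 160.3 CPM, the HT-DNA+AOA libraries 904.0, 889.9 and 997.9 CPM and the HT-DNA+AOA+Asp libraries 109.2, 119.0 and 120.7 CPM. The 6 groups did not overlap with each other, in the ascending order AOA+Asp, HT-DNA+AOA+Asp, HT-DNA, Mock, AOA and HT-DNA+AOA. The neighbours HT-DNA and Mock did not pass the test (log2 difference −0.09, 95% interval −0.27 to 0.10).

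Cxcl2, its close relative, had 10.6, 8.20 and 9.82 CPM in Mock. It had 83.7, 57.7 and 71.8 CPM with AOA, and 6.11, 5.73 and 6.53 CPM with AOA+Asp. With HT-DNA it had 7.73, 7.06 and 8.08 CPM, with HT-DNA+AOA 144.1, 136.5 and 132.1 CPM, and with HT-DNA+AOA+Asp 8.56, 9.43 and 9.23 CPM. The HT-DNA+AOA+Asp libraries overlapped with those of Mock, while the AOA+Asp and HT-DNA libraries were below both and did not overlap with each other.

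Cxcl3, the third of these chemokines, was scarce, with 5, 2 and 5 counts in Mock and 57, 40 and 44 counts with AOA. AOA+Asp libraries had 7, 5 and 5 counts, HT-DNA libraries 11, 6 and 10, HT-DNA+AOA libraries 50, 52 and 51, and HT-DNA+AOA+Asp libraries 7, 6 and 6. These correspond to group means of 0.180 ± 0.0786, 2.41 ± 0.630, 0.261 ± 0.0596, 0.426 ± 0.136, 2.77 ± 0.233 and 0.304 ± 0.0302 CPM (SD, n = 3). AOA and HT-DNA+AOA overlapped with each other and were above the other 4 groups, whose ranges overlapped in part.

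The transcripts of Cxcl2 and Cxcl3 share 161 stretches of 31 bases in GENCODE vM21, which is 7.59% of those of Cxcl2, and 5.46% of the stretches of Cxcl3 occur in any other gene. Counts of Cxcl3 were 1.10% to 7.19% of those of Cxcl2 across libraries. How the authors' counting divided reads between both genes was not tested, so the values of Cxcl3 are less certain than the others. Of the other members, Cxcl1, Il6, Il33 and Csf1 shared none, Lif 0.441% and Cxcl5 0.871%.

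Cxcl5, a chemokine of the same receptor, was not tested. It had 2 counts in AOA replicate 3, 5 in HT-DNA replicate 1 and 1 in HT-DNA+AOA replicate 3, and 0 in the other 15 libraries. A count of 0 allows up to 3 counts, so differences in Cxcl5 were not detectable at this depth.

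Il6, the founding member of its cytokine family, had 4 counts in each Mock library, and 10, 7 and 13 counts with AOA. AOA+Asp libraries had 1, 5 and 8 counts, HT-DNA libraries 12, 14 and 18, HT-DNA+AOA libraries 117, 127 and 121, and HT-DNA+AOA+Asp libraries 16, 13 and 21. The means were 0.180 ± 0.0103, 0.525 ± 0.228, 0.209 ± 0.148, 0.685 ± 0.0919, 6.62 ± 0.558 and 0.798 ± 0.186 CPM (SD, n = 3). HT-DNA+AOA stood far above every other group. HT-DNA and HT-DNA+AOA+Asp overlapped with each other and with the highest AOA library.

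Lif, which encodes the leukemia inhibitory factor, had 11.6, 11.0 and 12.6 CPM in Mock and 29.1, 22.5 and 21.3 CPM with AOA. It had 6.39, 6.26 and 6.40 CPM with AOA+Asp and 10.9, 11.7 and 12.6 CPM with HT-DNA. The HT-DNA+AOA libraries had 35.4, 29.0 and 28.5 CPM, and the HT-DNA+AOA+Asp libraries 6.96, 6.64 and 8.29 CPM. Mock and HT-DNA overlapped, AOA and HT-DNA+AOA overlapped, and AOA+Asp was lowest without overlap.

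Il33 had 6, 9 and 5 counts in Mock and 12, 17 and 9 counts with AOA. AOA+Asp libraries had 2, 8 and 5 counts, HT-DNA libraries 29, 15 and 28, HT-DNA+AOA libraries 143, 93 and 80, and HT-DNA+AOA+Asp libraries 11, 16 and 21. The means were 0.299 ± 0.0927, 0.625 ± 0.103, 0.232 ± 0.150, 1.13 ± 0.385, 5.67 ± 1.56 and 0.765 ± 0.231 CPM (SD, n = 3). HT-DNA+AOA replicate 1 was above the other 2 libraries of its group, at 7.47 against 4.77 and 4.77 CPM, and all 3 were above every other group.

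Csf1, the most abundant member, had 1421.0, 1485.0 and 1355.4 CPM in Mock and 3606.5, 3207.7 and 3148.7 CPM with AOA. It had 1033.2, 1116.2 and 1049.1 CPM with AOA+Asp and 1793.3, 1874.2 and 1835.8 CPM with HT-DNA. The HT-DNA+AOA libraries had 4124.2, 3589.1 and 4234.4 CPM, and the HT-DNA+AOA+Asp libraries 1422.4, 1366.6 and 1385.4 CPM. The last group overlapped with Mock, AOA overlapped with HT-DNA+AOA, and AOA+Asp was lowest without overlap.

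With AOA alone, the 7 tested members were 2.08- to 12.9-fold higher than in Mock, and their libraries were all above those of Mock, as were those of 29.8% of all genes. Cxcl3 (12.9-fold, log2 3.69 ± 0.336 SE) and Cxcl2 (7.42-fold, log2 2.89 ± 0.120 SE) differed most. Cxcl1 was 3.14-fold, Il6 2.78-fold, Csf1 2.34-fold, Il33 2.09-fold and Lif 2.08-fold higher. The median over the members was 1.47 on the log2 scale, beside 0.02 over all genes tested, and 45.7% of all genes were called in this comparison with edgeR (adjusted p under 0.05). Since it served in the choice of the members, nothing is read from their number.

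In cells with HT-DNA, the same comparison had another order. Cxcl2 was 18-fold higher in HT-DNA+AOA than in HT-DNA (log2 4.17 ± 0.125 SE), Il6 9.54-fold (log2 3.25 ± 0.287 SE), Cxcl3 6.46-fold, Cxcl1 5.82-fold, Il33 5.00-fold, Lif 2.64-fold and Csf1 2.17-fold. The median of the members was 2.54, beside 0.02 over all genes tested, of which 45.4% were called. Leaving out any one of the HT-DNA+AOA libraries, which differed most among themselves, gave medians of the members of 2.49 to 2.57 here, −3.03 to −2.97 in HT-DNA+AOA+Asp against HT-DNA+AOA and 0.75 to 0.83 in HT-DNA+AOA against AOA. The AOA difference with HT-DNA minus that without it was 1.78 for Il6 (95% interval 0.53 to 3.03), 1.28 for Cxcl2 (0.93 to 1.63), 1.26 for Il33 (0.10 to 2.42) and 0.89 for Cxcl1 (0.63 to 1.15) on the log2 scale. It was 0.35 for Lif (−0.01 to 0.70), −0.11 for Csf1 (−0.32 to 0.10) and −1.0 for Cxcl3 (−2.01 to 0.00). In value, the AOA difference of Il6, Cxcl2, Il33 and Cxcl1 was larger in transfected cells, and that of Cxcl3 was smaller. These values belong to libraries used in the choice and were not tested, and 15.5% of all genes were called for this difference.

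Adding aspartate to AOA went with lower levels of every tested member. AOA+Asp was 11.6-fold below AOA for Cxcl2, 9.04-fold for Cxcl3, 6.56-fold for Cxcl1, 3.83-fold for Lif, 3.11-fold for Csf1, 2.71-fold for Il33 and 2.35-fold for Il6, for which the libraries overlapped. HT-DNA+AOA+Asp was 15.2-fold below HT-DNA+AOA for Cxcl2, 8.97-fold for Cxcl3, 8.23-fold for Il6, 8.0-fold for Cxcl1, 7.36-fold for Il33, 4.24-fold for Lif and 2.86-fold for Csf1, with no overlap in any. Of all genes tested 28.6% and 23.8% were lower without overlap. The medians of the members were −1.94 and −3.0, beside −0.01 over all genes in both, of which 46.3% and 47.7% were called.

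**Figure D3:**
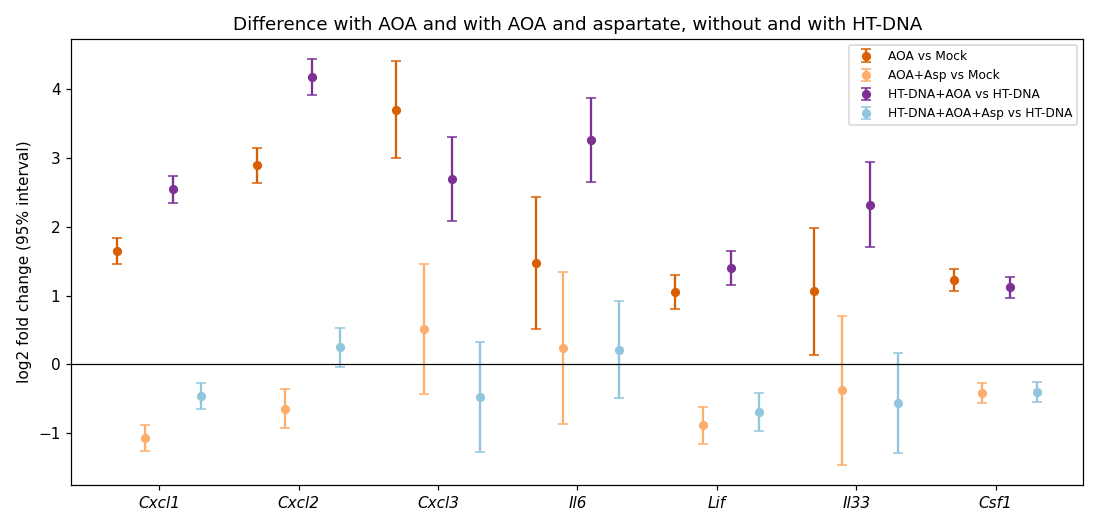
log2 fold change of the 7 tested genes with its 95% interval for AOA and for AOA+Asp against Mock, and for HT-DNA+AOA and HT-DNA+AOA+Asp against HT-DNA. Points with AOA lie between 1.05 and 4.17, and points with AOA and aspartate between −1.07 and 0.52.

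The cells with AOA and aspartate were next compared with cells that had received neither, a comparison the choice of the members did not use, although its Mock libraries are also those of the AOA comparison. 4 genes fell below Mock in AOA+Asp and none rose. Cxcl1 fell 2.09-fold (log2 −1.07 ± 0.0904 SE, edgeR quasi-likelihood test, adjusted p = 3.46e-07), Lif 1.84-fold (log2 −0.88 ± 0.131, adjusted p = 0.000341), Cxcl2 1.56-fold (log2 −0.64 ± 0.135, adjusted p = 0.00691) and Csf1 1.33-fold (log2 −0.41 ± 0.0710, adjusted p = 0.00131). All 3 AOA+Asp libraries were below all 3 Mock libraries for each of these. The values of the scarce members were −0.37 for Il33 (95% interval −1.46 to 0.71), 0.24 for Il6 (−0.87 to 1.34) and 0.52 for Cxcl3 (−0.43 to 1.46), whose libraries overlapped. Of all genes tested 6.47% were called, 3.95% lower and 2.52% higher, and 15.6% were lower without overlap. Without Mock replicate 1 the call of Cxcl2 was lost (log2 −0.55, adjusted p = 0.0520).

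In transfected cells, HT-DNA+AOA+Asp was compared with HT-DNA alone in the same way, and its HT-DNA libraries are also those of an AOA comparison. Lif fell 1.61-fold (log2 −0.69 ± 0.131 SE, adjusted p = 0.000533), Cxcl1 1.38-fold (log2 −0.46 ± 0.0894, adjusted p = 0.000618) and Csf1 1.32-fold (log2 −0.40 ± 0.0709, adjusted p = 0.000310), by the edgeR quasi-likelihood test. Each was lower in all 3 libraries than in any HT-DNA library. Cxcl2 was higher in all 3 libraries but did not pass (log2 0.25, 95% interval −0.03 to 0.53, adjusted p = 0.132). Il33 (−0.56, −1.29 to 0.17), Cxcl3 (−0.47, −1.27 to 0.33) and Il6 (0.21, −0.49 to 0.92) did not pass either. The 3 calls, all lower, stand beside 46.6% of all genes called and 23.5% called lower. Of all genes 31% were lower without overlap, and nothing is read from the number of members called.

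HT-DNA alone was compared with Mock, and the libraries of both groups are also the controls of the AOA comparisons used in the choice. Il33 rose 3.73-fold over Mock (log2 1.90 ± 0.400 SE, edgeR quasi-likelihood test, adjusted p = 0.000949), Il6 3.74-fold (log2 1.90 ± 0.430, adjusted p = 0.00161), Cxcl3 2.32-fold (log2 1.21 ± 0.415, adjusted p = 0.0242) and Csf1 1.29-fold (log2 0.37 ± 0.0709, adjusted p = 0.000455), each higher in all 3 libraries than in any Mock library. Cxcl2 fell 1.25-fold (log2 −0.32 ± 0.132, adjusted p = 0.0495). Lif differed by 0.00 (95% interval −0.26 to 0.26), and Cxcl1 by −0.09 (−0.27 to 0.10) although its HT-DNA libraries were all below Mock. Of 14263 genes tested, 4370 were lower in HT-DNA than in Mock without overlap. Among all genes tested 48.2% were called, with 24.2% higher and 24% lower, and 30.6% were higher without overlap, and nothing is read from the number of members called, 3 of which (Il33, Il6 and Cxcl3) passed the filter only through groups where they were high. With no filter on low counts Il33 and Il6 were still called (adjusted p = 1.25e-05 and 0.000288). The call of Cxcl3 was lost without Mock replicate 2 (adjusted p = 0.136), HT-DNA replicate 1 (0.123) or HT-DNA replicate 3 (0.0596), with DESeq2 (0.0544), with no filter (0.0771) and with only the libraries compared (0.0689). That of Cxcl2 was lost without any one of Mock replicates 1 and 3 and HT-DNA replicates 1, 2 and 3 (adjusted p 0.0631 to 0.201), and without HT-DNA replicate 1 or 3 the count of members called was 3.

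The response to HT-DNA was also measured in cells with AOA and aspartate, in a contrast whose libraries take no part in those that chose the members, although Il6, Il33 and Cxcl3 passed the filter only through groups where they were high and reached its level in no AOA+Asp library. In HT-DNA+AOA+Asp against AOA+Asp 5 members were called, 2 of them Il6 and Il33. Il6 rose 3.68-fold (log2 1.88 ± 0.410 SE, edgeR quasi-likelihood test, adjusted p = 0.0121), Il33 3.28-fold (log2 1.72 ± 0.446, adjusted p = 0.0375), Cxcl2 1.48-fold (log2 0.56 ± 0.137, adjusted p = 0.0239), Cxcl1 1.43-fold (log2 0.52 ± 0.0902, adjusted p = 0.00179) and Csf1 1.31-fold (log2 0.38 ± 0.0710, adjusted p = 0.00302). Each of the 5 was higher in all 3 libraries. Cxcl3 (0.22, 95% interval −0.64 to 1.09) and Lif (0.20, −0.09 to 0.49) did not pass. Of all genes 3.45% were called and 1.93% called higher, and 13.7% were higher without overlap. Nothing is read from the number of members called. With no filter on low counts Il6 and Il33 were still called (adjusted p = 0.00175 and 0.00625). The calls of Cxcl1 and Csf1 held whichever library was left out. That of Il6 was lost without AOA+Asp replicate 1 (adjusted p = 0.0570) or HT-DNA+AOA+Asp replicate 3 (0.0718), that of Il33 without AOA+Asp replicate 1 or 3 or HT-DNA+AOA+Asp replicate 2 or 3 (0.107 to 0.180), and that of Cxcl2 without any library but HT-DNA+AOA+Asp replicate 1 (0.0630 to 0.102). The count of members called was 2 without AOA+Asp replicate 1 or HT-DNA+AOA+Asp replicate 3, and 3 without AOA+Asp replicate 3 or HT-DNA+AOA+Asp replicate 2.

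The HT-DNA responses with AOA+Asp and in Mock were then compared directly. The difference between them was 0.61 ± 0.127 SE for Cxcl1 (log2, edgeR interaction term, adjusted p = 0.0146) and 0.89 ± 0.190 SE for Cxcl2 (adjusted p = 0.0165). Both genes were called higher with HT-DNA in cells with AOA+Asp. In HT-DNA against Mock, Cxcl1 did not pass the test (log2 −0.09, edgeR adjusted p = 0.43). The call of Cxcl2 there (log2 −0.32, edgeR adjusted p = 0.0495) was lost in 5 of 6 leave-outs. Cxcl1 and Cxcl2 are 2 of 7 members, beside 6.25% of all genes tested. For Csf1 (0.02, 95% interval −0.19 to 0.23), Lif (0.20, −0.19 to 0.59), Il6 (−0.02, −1.12 to 1.07), Il33 (−0.18, −1.56 to 1.19) and Cxcl3 (−0.99, −2.23 to 0.25) it did not pass, and the intervals of the last 3 are too wide to call the responses alike. The call of Cxcl1 was lost without AOA+Asp replicate 2 (adjusted p = 0.0544), and that of Cxcl2 without it (0.0606) or without Mock replicate 1 (0.0582), so the count was 0 without AOA+Asp replicate 2 and 1 without Mock replicate 1. The Mock and HT-DNA libraries of this comparison are also the controls of the AOA comparisons used in the choice of the members.

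In cells with AOA, whose libraries were used in the choice, HT-DNA+AOA was 12.9-fold above AOA for Il6 and 8.92-fold for Il33. It was 1.94-fold above for Cxcl2, 1.74-fold for Cxcl1, 1.27-fold for Lif, 1.2-fold for Csf1 and 1.16-fold for Cxcl3, the last 3 with overlapping libraries. The median of the members was 0.80, beside −0.01 over all genes, of which 13.4% were called and 9.7% were higher without overlap.

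**Figure D4:**
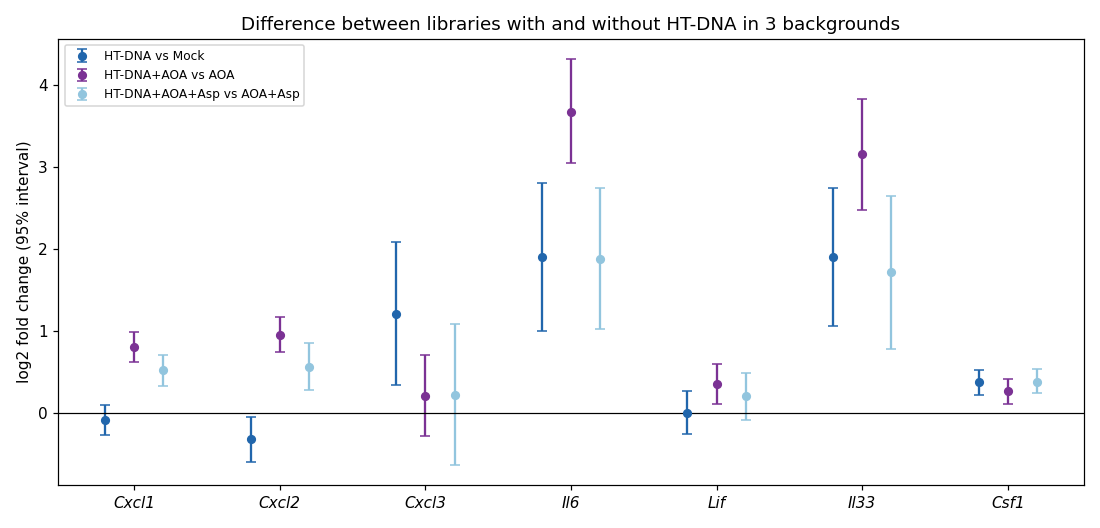
log2 fold change with HT-DNA of the 7 tested genes with its 95% interval in cells without other treatment, with AOA, and with AOA and aspartate. Il6, Il33 and Csf1 are above 0 in all 3 backgrounds, with intervals that exclude 0. The points of Cxcl1 and Cxcl2 lie below 0 without AOA and above 0 in both backgrounds with it. Without AOA the interval of Cxcl1 includes 0.

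The members fell into patterns that could be described by the genes most like them. Likeness was measured as the root mean square difference between log2 CPM profiles over the 18 libraries, each centred on its own mean. The profiles were not scaled, so the measure also depends on how much a gene varied. The SD of the profile was 0.692 for Csf1 and 0.836 for Lif, against 1.58 for Il6 and 1.74 for Cxcl2. Among the members, Csf1 and Lif were closest (0.251), followed by Cxcl1 and Lif (0.463), Il33 and Il6 (0.520) and Cxcl1 and Cxcl3 (0.550), while Cxcl2 and Il33 (1.27) and Cxcl2 and Il6 (1.26) were farthest apart. Over all genes tested, Il23a (0.313), Lcn2 (0.323) and Gch1 (0.392) were most like Cxcl1. Gm15731 (0.342), Il23a (0.367) and Prr32 (0.371) were most like Cxcl3, and 4930438A08Rik (0.413), Hhipl1 (0.461) and Mamdc2 (0.482) most like Cxcl2. Il23a, the specific chain of IL-23, had 3.95 ± 0.257 CPM in Mock, 20.7 ± 1.68 with AOA, 3.58 ± 0.515 with AOA+Asp and 35.4 ± 2.16 with HT-DNA+AOA (SD, n = 3). For Il6 the closest were Xaf1 (0.397), Trim21 (0.465) and Slfn2 (0.498), and for Il33 Xaf1 (0.407), Ifi47 (0.474) and Oas3 (0.476). Xaf1 had 1.62 ± 0.216 CPM in Mock, 2.88 ± 0.133 with AOA, 4.50 ± 0.273 with HT-DNA and 25.5 ± 3.62 with HT-DNA+AOA. For Csf1 they were Smim3 (0.130), Adgra2 (0.136) and Stk40 (0.158), and for Lif Csf1, Smim3 (0.269) and Stk40 (0.272). All these profiles share the same libraries and scaling, and no test was made.

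Of the receptors for these factors, 5 of 9 were tested. Il6st, the shared gp130 chain, was the most abundant at 174.9 ± 11.7 CPM in Mock (SD, n = 3), and Il1rap had 106.2, Il6ra 27.3, Lifr 21.9 and Cxcr2 3.52 CPM. Cxcr1 and Ackr1 had 0 counts in all libraries, Il1rl1 at most 3 and Csf1r at most 10.5. With AOA, where 23.3% of all genes were called lower, Il6ra fell 1.72-fold below Mock (edgeR, adjusted p = 1.5e-06), and Lifr 1.40-fold (adjusted p = 0.0069) and Il1rap (log2 −0.40) fell as well, the last not without AOA replicate 2. With HT-DNA, where 24% were called lower, Il6st fell 1.64-fold (adjusted p = 0.000407) and Lifr 1.37-fold (adjusted p = 0.0105), the latter not without HT-DNA replicate 3.

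Of the 13 NF-κB subunits, kinases and inhibitors, 7 rose and 1 fell with AOA against Mock, beside 22.4% of all genes called higher and 23.3% lower. Relb, a subunit of the non-canonical dimer, rose 2.87-fold from 6.66 ± 0.545 to 19.1 ± 1.60 CPM (SD, n = 3; edgeR, adjusted p = 5.8e-08). Nfkb2, its partner, rose 1.99-fold (adjusted p = 3.1e-08) and Nfkbiz, a nuclear inhibitor-like cofactor required for a set of secondary response genes that includes Il6, 1.88-fold (adjusted p = 2.4e-07). All 8 calls held whichever library was left out. With AOA+Asp against Mock none of the 13 was called by edgeR, and their values ran from −0.28 to 0.55. In HT-DNA+AOA against HT-DNA 11 rose and 1 fell, led by Nfkbiz (3.26-fold, adjusted p = 6.72e-11) and Relb (1.96-fold, adjusted p = 5.69e-06), beside 22.8% called higher and 22.7% lower among all genes. Of these 12 calls 5 held without HT-DNA replicate 1, and 5 with only the libraries compared. With HT-DNA against Mock 6 rose, Relb the most among them (1.68-fold, adjusted p = 0.000325), and 4 fell, among them Nfkbiz (1.31-fold, adjusted p = 0.00228), beside 24.2% of all genes called higher and 24% lower.

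Of 10 tested genes of JAK-STAT3 signalling, 3 rose and 5 fell with AOA, beside 22.4% of all genes called higher and 23.3% lower. Socs3, a feedback inhibitor of gp130 signalling and a STAT3 target, fell 2.98-fold from 46.2 ± 1.35 to 15.5 ± 1.32 CPM (SD, n = 3; edgeR, adjusted p = 1.67e-10), whereas Cebpd, another target, rose 1.83-fold (adjusted p = 0.000648). With AOA+Asp Socs3 was still 2.37-fold below Mock (adjusted p = 2.57e-08). Of the 10, 4 fell and none rose with AOA+Asp, beside 3.95% of all genes called lower and 2.52% higher. Cebpd was among the 4, and its call was lost in 5 of 6 leave-outs. In HT-DNA+AOA against HT-DNA, 4 rose and 4 fell, beside 22.8% of all genes called higher and 22.7% lower. Socs3 fell 3.01-fold (adjusted p = 9.01e-11) and Jak2 rose 2.48-fold (adjusted p = 6.8e-07). Socs3 was thus lower where Il6 and Lif were higher in the groups with AOA and no aspartate, whereas in AOA+Asp both Lif and Socs3 were below Mock.

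Of 9 factors that control the decay or stability of cytokine mRNAs, 3 rose and 5 fell with AOA, beside 22.4% of all genes called higher and 23.3% lower. Of these 8 calls 6 held without Mock replicate 3 or AOA replicate 2, and 6 with library totals. Arid5a, which is known to protect Il6 mRNA, rose 2.73-fold from 9.51 ± 0.921 to 26.0 ± 3.89 CPM (SD, n = 3; edgeR, adjusted p = 3.66e-09) and by 3.13-fold in HT-DNA+AOA against HT-DNA (adjusted p = 2.23e-10). Zfp36, whose product tristetraprolin promotes decay of AU-rich cytokine mRNAs, fell 2.41-fold with AOA (adjusted p = 5.69e-07), its relative Zfp36l2 1.98-fold (adjusted p = 6.96e-09), and Zc3h12a, which encodes the RNase Regnase-1, 1.25-fold (adjusted p = 0.0043). The other calls with AOA were rises of Hnrnpd (log2 0.22 to 0.29 with 1 library left out) and Elavl1 (0.12 to 0.23), and falls of Zfp36l1 and Rc3h1. Of the 9, 3 fell with AOA+Asp against Mock, beside 3.95% of all genes called lower, the call of Zfp36 (log2 −0.46, adjusted p = 0.0341) being lost whichever library was left out. Zc3h12a and Zfp36l2 were also below Mock with AOA+Asp (1.68-fold each, adjusted p = 1.87e-05 and 2.35e-06), whereas Arid5a was not called there (log2 −0.38, adjusted p = 0.0505). In HT-DNA+AOA against HT-DNA 1 rose and 4 fell, beside 22.8% and 22.7% of all genes.

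**Figure D5:**
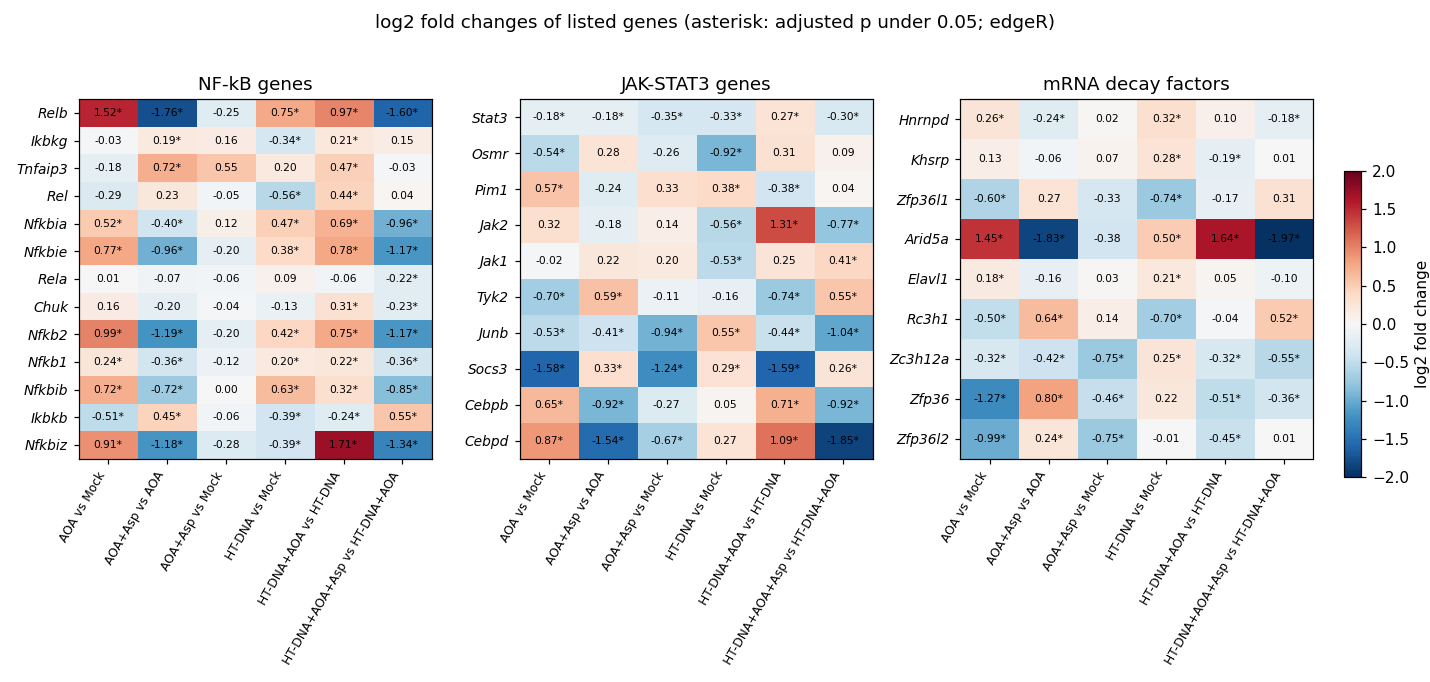
log2 fold changes of NF-κB genes, JAK-STAT3 genes and mRNA decay factors in 6 comparisons, by colour and number; an asterisk marks an adjusted p under 0.05 (edgeR). Relb, Nfkb2, Nfkbiz and Arid5a are higher in both comparisons with AOA and lower where aspartate was added, and Socs3 is lower in both comparisons with AOA.

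Other cytokines of the same families were mostly scarce, and 7 of 17 were tested. With AOA, where 45.7% of all genes were called, none rose and Il1a fell (log2 −0.62, edgeR adjusted p = 0.0327), a call lost without Mock replicate 1 or 2 or AOA replicate 2 or 3. In HT-DNA+AOA against HT-DNA 2 rose, Il1a (1.64-fold, adjusted p = 0.0129, lost without HT-DNA replicate 1 or 3 or HT-DNA+AOA replicate 2) and Tnf (1.45-fold, adjusted p = 0.0312, lost without HT-DNA replicate 2 or 3 or HT-DNA+AOA replicate 1 or 3), and 3 fell, beside 22.8% of all genes called higher and 22.7% lower. Those that fell were Il34 (mean 8.89 CPM with HT-DNA and 5.72 with HT-DNA+AOA), Clcf1 (58.2 and 46.1) and Il11 (0.764 and 0.359). The calls of Il34 and Clcf1 held whichever library was left out, and that of Il11 was lost in 5 of 6 cases. The 10 that were not tested had group means of at most 0.28 CPM. Ppbp, Pf4 and Cxcl15, named for their place among the chemokine genes on chromosome 5, had at most 3, 1 and 1 counts in any library.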

How the data were processed

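RNA-seq libraries of L929 cells, 3 independent cultures in each of 6 groups, were analysed as 1 table of 57180 genes. The authors deposited estimated counts per gene for each library, of which 11.6% were not whole, and the group means, which were not used. The aligner, counting tool, genome build and annotation are not given in the sources used here. The estimated counts were rounded and 29986 genes had a count. A count test planned for raw counts was applied to the rounded values. Genes were kept by filterByExpr (minimum count 10, minimum total 15), scaled by TMM and fitted with the robust quasi-likelihood model of edgeR 4.0.16 (R 4.3.3) over all 18 libraries, with Benjamini-Hochberg adjustment over 14263 genes and a threshold of 0.05. CPM use TMM-scaled totals. Ratios of length used GENCODE vM21, and log2 CPM profiles a prior count of 2. Library totals were 17901605 to 24057343 counts, so scarce genes are limited by counting error. The script was tested on simulated data. Alternatives were DESeq2 1.42.0, other scalings and filters, a replicate block, only the libraries compared, and leaving out each library. Replicates differed by more than counting noise (chi-square per degree of freedom 16.9 to 62.4 in HT-DNA+AOA and 2.72 to 12.4 in the other groups). Named were all members, every receptor, of each list up to 4 abundant genes and up to 4 called genes with the largest change at a mean of at least 1 CPM, and the 3 genes most like each member. Members, lists and this rule were chosen with earlier results of these data known.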

Additional observations from a re-analysis of the deposited data

Results flagged for a closer look

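For Cxcl1 and Cxcl2 the response to HT-DNA differed between cells with AOA+Asp and Mock cells by a test of the difference itself, by 0.61 (Cxcl1, edgeR adjusted p = 0.0146) and 0.89 (Cxcl2, adjusted p = 0.0165) on the log2 scale. HT-DNA+AOA+Asp was above AOA+Asp in 3 of 3 libraries for both genes, and HT-DNA was below Mock in 3 of 3. Of 14263 genes tested, 1950 were higher without overlap in the former comparison and 4370 lower in the latter. Both calls of the difference were lost without AOA+Asp replicate 2 (edgeR adjusted p = 0.0544 and 0.0606). That of Cxcl2 was also lost without Mock replicate 1 (0.0582), and its call with HT-DNA against Mock in 5 of 6 leave-outs. Cxcl1 and Cxcl2 were above AOA in all HT-DNA+AOA libraries and below Mock in all HT-DNA libraries, where Cxcl1 did not pass the test (log2 −0.09, adjusted p = 0.43). The differences between these values were 0.89 for Cxcl1 and 1.28 for Cxcl2. They were not tested and are no support for the first, since their libraries were used in the choice of the genes. The Mock and HT-DNA libraries of the first also served there, as the controls of AOA. No group of 3 libraries could be tested for a single library far from the others.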

How the results depend on the processing

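Of the values of single members, 497 were counted as unchanged under the alternatives that keep all libraries and 507 when 1 library was left out. In the tested comparisons this means the same direction and side of the threshold, or no adjusted p given. In the others it means the same direction and a shift smaller than the spread between replicates. Of the rest, 27 calls were lost, 20 values changed sign and Csf1 with AOA against Mock moved to 1.09 with library totals. With at least 10 counts in every library, which leaves 4 members, 2 instead of 5 were called with HT-DNA against Mock and 3 instead of 5 in HT-DNA+AOA+Asp against AOA+Asp. The members' median then was −2.32 in AOA+Asp against AOA (also −2.32 with no filter), 1.99 in HT-DNA+AOA against HT-DNA and −2.55 in HT-DNA+AOA+Asp against HT-DNA+AOA. Leaving out 1 library gave 3 to 4 calls with HT-DNA against Mock, 2 to 5 in HT-DNA+AOA+Asp against AOA+Asp, 0 to 2 for the difference between these responses, 3 to 4 in AOA+Asp against Mock and 3 in HT-DNA+AOA+Asp against HT-DNA.

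Values that changed sign were not called. The difference between the HT-DNA responses was 0.07 for Il6 when scaled by library totals and 0.01 with the replicate block, and leaving out 1 library gave −0.02 to 0.05 for Csf1, −0.54 to 0.37 for Il33 and −0.48 to 0.52 for Il6. Il6 in AOA+Asp against Mock ran from −0.31 to 0.69. Lif with HT-DNA against Mock was −0.11 with library totals and −0.01 with at least 10 counts in every library, and ran from −0.05 to 0.06 with 1 library left out. Library totals moved the median of all genes by −0.131 with AOA and −0.111 with HT-DNA. The cause of these changes was not tested.

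Same-numbered libraries correlated at −0.11 to 0.28 over 15 pairs of groups, so the numbers did not pair them. With the replicate block, Il33 in HT-DNA+AOA+Asp against AOA+Asp kept its value of 1.72 but lost its call (adjusted p = 0.0527), and no other call of a member changed. DESeq2 gave no adjusted p for the difference between the HT-DNA responses of Cxcl3, Il33 and Il6. Depth limits Cxcl3, Il6, Il33 and Cxcl5, which had few counts in Mock.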
